A study of Mus musculus with 10 samples.

Results

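Slc25a1 and 9 further genes of fatty acid synthesis, its supply and its control were followed across 10 mouse hepatoma tumours. The genes were taken by symbol from a table of 55020 lines, and each of the 10 symbols had a single line. Slc25a1 was chosen by its own values in these tumours, where it was among the genes most clearly lower after treatment, so its difference is given as a description without a test. Acly, Acaca, Fasn, Scd1, Scd2, Me1, Acss2, Srebf1 and Mlxipl were added as genes of the same pathway, with the results of the tumours already known. All 10 genes passed the filter of a mean of at least 1 FPKM (fragments scaled to the length of the transcript and the size of the library).

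Hepa1-6 cells, a mouse hepatoma line, were injected under the skin of C57/BL6 mice and grown for 4 weeks. RNA came from 5 tumours of mice that received GSK343, which blocks the H3K27 methyltransferase EZH2, and from 5 tumours of mice on vehicle, described as biological replicates. The labels give no dose, schedule, age or sex. Antibody injections (anti-asialo-GM1 or a control) are named as well, but no tumour is tied to either, so their part in any difference cannot be told apart from that of the drug. The tumours were rich in the hepatoma transcripts Afp, at 1465 to 2154 FPKM in GSK343 and 1954 to 2424 FPKM in vehicle tumours, and Alb, at 2380 to 3061 FPKM in GSK343 and 2878 to 3658 FPKM in vehicle tumours.

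Fatty acid synthesis begins with citrate made in mitochondria. The carrier SLC25A1 moves citrate to the cytosol, where ATP-citrate lyase (Acly) splits it into acetyl-CoA and oxaloacetate. Acetyl-CoA carboxylase (Acaca) and fatty acid synthase (Fasn) build palmitate from it with NADPH, part of which malic enzyme (Me1) supplies, and stearoyl-CoA desaturases (Scd1, Scd2) introduce a double bond. Acss2 makes acetyl-CoA from acetate instead. The transcription factors SREBP-1 (Srebf1) and ChREBP (Mlxipl) drive these genes in liver in response to insulin and sugar.

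The level of Slc25a1 was lower throughout the GSK343 tumours, without overlap with the vehicle tumours. The gene (ENSMUSG00000003528.15) lies on mm10 chromosome 16, 17925223 to 17928219, and no other annotated gene overlaps it. Its level was 46.5, 50.5, 50.1, 50.8 and 47.9 FPKM in GSK343 replicates 1 to 5, against 66.4, 61.0, 61.1, 62.3 and 64.8 FPKM in vehicle replicates 1, 2, 3, 5 and 6. The values were tight within each treatment, and nothing lay between the highest GSK343 and the lowest vehicle tumour. The mean was 49.2 ± 1.89 FPKM in GSK343 and 63.1 ± 2.39 FPKM in vehicle tumours (SD, n = 5 each), so that GSK343 tumours held 77.9% of the vehicle level. The log2 fold change of FPKM + 1 was -0.35, with a standard error of 0.0548. In bulk RNA, fewer cells of a type and less RNA per cell cannot be told apart.

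The values that chose Slc25a1 were a moderate difference with a small spread. Of the 14496 lines tested, 2184 lines, or 15.1%, had a larger absolute log2 fold change. Its residual SD on the log2 scale was 0.0541, lower than in all but about 0.414% of lines tested. Ordered by limma's p it stood at place 14 of all lines, and at place 3 among those lower after GSK343, an order that describes the choice and tests nothing. Of all lines tested, 1.2% were lower without overlap, 1.42% higher without overlap and 2.62% either, in the contrast that chose Slc25a1. In the fits that left out 1 tumour, its log2 fold change stayed between -0.37 and -0.33.

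Markers of hepatoma cells and of other cell types were followed here in 4 lists, of which limma called 0 genes at an adjusted p under 0.05. Adipocyte, skin and skeletal muscle markers are given further below. Of all lines tested, 0.0828% were called. At an unadjusted p under 0.05 in limma, 9 pan-leukocyte, 7 fibroblast and 1 endothelial marker were higher, and 4 hepatocyte markers and 1 endothelial marker were lower. The shares of all lines tested were 10.7% higher and 6.86% lower. All 10 pan-leukocyte markers had a positive log2 fold change, as had 6903 of all 14496 lines tested. The summed level of these markers was 546 to 956 FPKM in GSK343 and 258 to 788 FPKM in vehicle tumours. Adding the pan-leukocyte score to the model gave a log2 fold change of -0.29 for Slc25a1. Of the 14 hepatocyte and hepatoma markers, 13 had a negative log2 fold change, as had 7593 of all 14496 lines tested. The sum of the 14 markers was 4900 to 6767 FPKM in GSK343 and 6236 to 8183 FPKM in vehicle tumours. Adding this score instead gave -0.34 on the same scale. Each score shifted along with treatment, so these fits cannot tell cell make-up from treatment. The part of cell make-up in the value of Slc25a1 was not tested. The 10 fibroblast markers summed to 1542 to 2348 FPKM in GSK343 and 1587 to 2005 FPKM in vehicle tumours, and the 8 endothelial markers to 77.6 to 100.1 FPKM in GSK343 and 70.8 to 95.7 FPKM in vehicle tumours. No marker of these 4 lists was at 0 throughout.

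**Figure D1:**
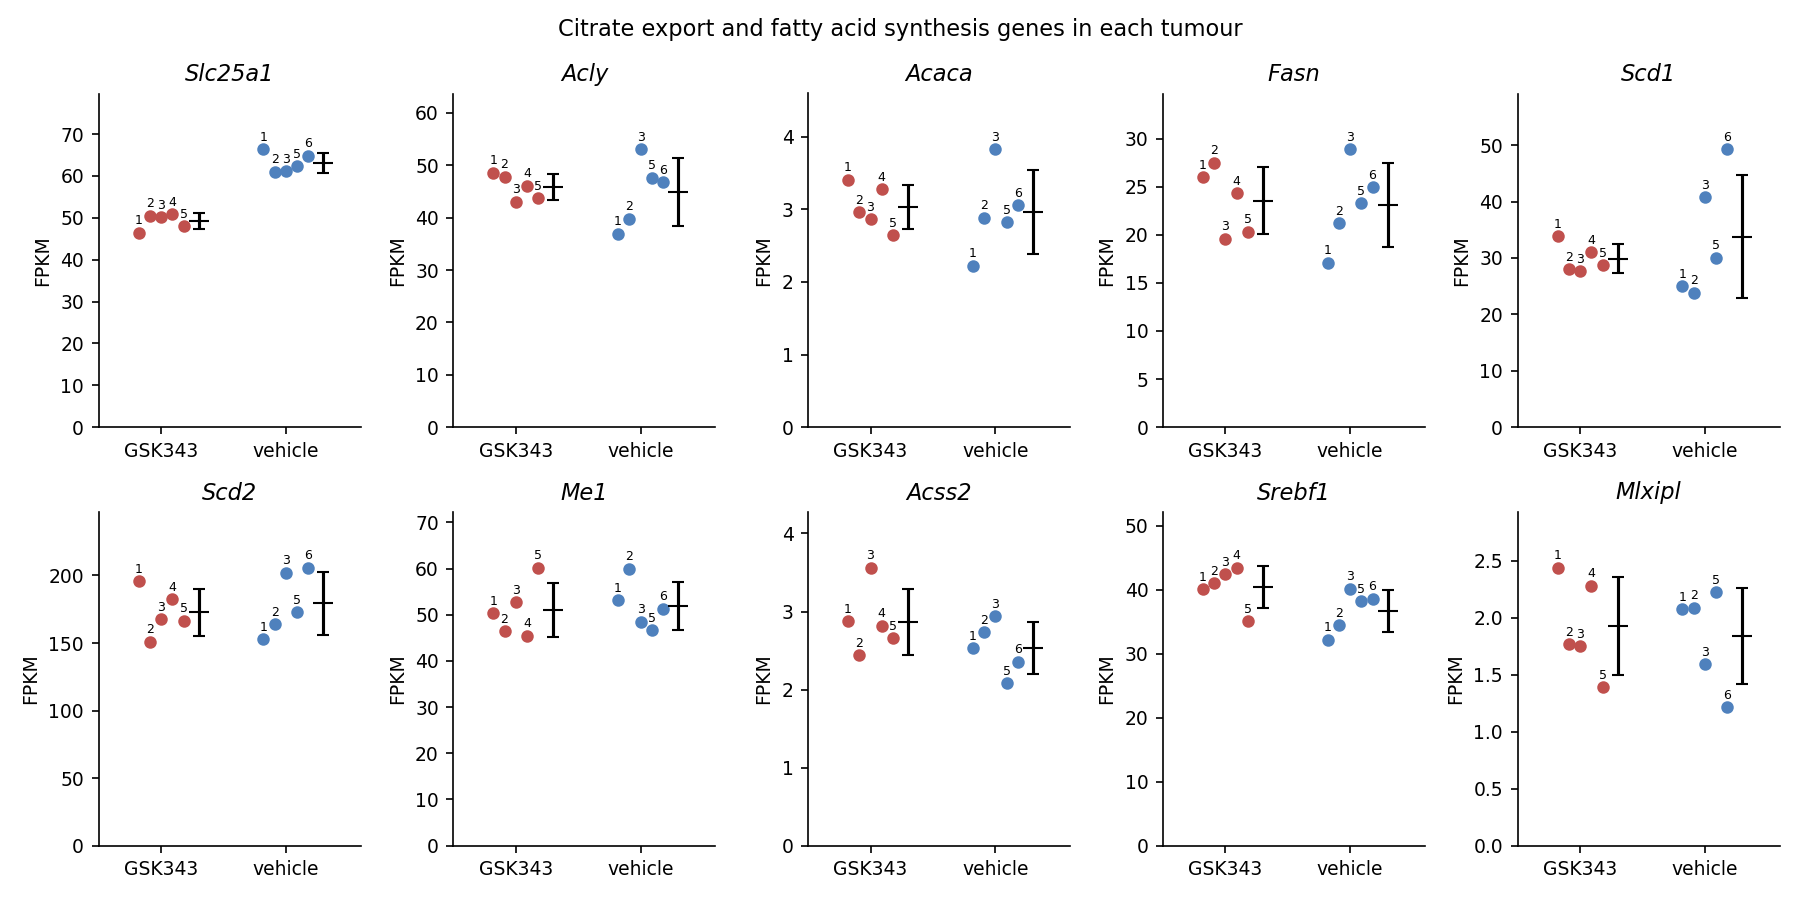
FPKM of the 10 genes in each tumour, GSK343 left and vehicle right. Points are tumours with their replicate numbers, and bars are the mean and SD of 5 tumours. Slc25a1 is the gene whose groups do not overlap, at 46.5 to 50.8 FPKM in GSK343 and 61.0 to 66.4 FPKM in vehicle tumours.

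The bases before the start sites of Slc25a1, Acly and Fasn are shown because these genes act between mitochondrial citrate and palmitate, and because Acly and Fasn varied together. RefSeq (GRCm38.p6, the assembly of mm10) held start sites for 8 of the 10 genes, with 12 windows of 250 bases before the start in all. The windows printed, 5′ to 3′ on the strand of the gene, are chr16:17928220-17928469 (minus strand) for Slc25a1, chr11:100528001-100528250 (minus strand) for Acly and chr11:120824548-120824797 (minus strand) for Fasn. Capitals mark matches on either strand, with touching matches run together. The E-box was searched as CACGTG. The CCAAT box was searched under its own letters. The GC box was searched as GGGCGG. A form of the sterol regulatory element was searched as TCACNCCAC.
Slc25a1: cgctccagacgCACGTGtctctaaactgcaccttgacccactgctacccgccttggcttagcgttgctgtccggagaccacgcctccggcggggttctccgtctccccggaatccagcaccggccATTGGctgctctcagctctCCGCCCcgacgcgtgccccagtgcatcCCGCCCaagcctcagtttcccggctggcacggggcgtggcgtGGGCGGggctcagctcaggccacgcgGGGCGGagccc
Acly: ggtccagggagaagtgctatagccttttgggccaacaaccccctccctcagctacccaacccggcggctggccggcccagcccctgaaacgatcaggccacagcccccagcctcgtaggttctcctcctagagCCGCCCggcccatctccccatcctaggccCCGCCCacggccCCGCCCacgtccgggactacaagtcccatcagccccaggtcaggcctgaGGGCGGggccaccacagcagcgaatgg
Fasn: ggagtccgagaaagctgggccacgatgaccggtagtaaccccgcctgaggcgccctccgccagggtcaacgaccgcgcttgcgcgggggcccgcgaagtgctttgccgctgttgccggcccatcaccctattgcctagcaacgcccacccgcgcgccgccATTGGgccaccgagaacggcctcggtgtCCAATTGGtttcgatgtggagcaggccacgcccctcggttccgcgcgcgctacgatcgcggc

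The window of Slc25a1 held 1 E-box, 1 CCAAT box and 4 GC boxes. The window of Acly held 4 GC boxes and none of the other motifs. The window of Fasn held 3 CCAAT boxes, 2 of them overlapping on opposite strands, and no GC box. Of all 32851 windows of this length, 6.02% held CACGTG, 33.8% held CCAAT, 32.7% held GGGCGG and 1.05% held TCACNCCAC. TCACNCCAC was in none of these 3 windows. Among the 12 windows it was found once, in a window of Mlxipl. A match of letters is a description of the sequence and does not show binding.

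Acly, the enzyme directly downstream of the carrier, did not pass the test. It measured 48.6, 47.8, 43.1, 46.1 and 43.7 FPKM in GSK343 replicates 1 to 5, against 36.9, 39.8, 53.1, 47.6 and 46.8 FPKM in vehicle replicates 1, 2, 3, 5 and 6. The GSK343 values lay inside the vehicle range. The log2 fold change was 0.04 (95% interval -0.17 to 0.26, limma adjusted p = 0.847). The ratio of Slc25a1 to Acly in FPKM was 0.957 to 1.16 in GSK343 and 1.15 to 1.80 in vehicle tumours. The ratio was lowest among vehicle tumours in replicate 3, where Acly was highest.

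Fasn measured 26.0, 27.5, 19.6, 24.3 and 20.3 FPKM in GSK343 replicates 1 to 5, against 17.1, 21.2, 28.9, 23.3 and 25.0 FPKM in vehicle replicates 1, 2, 3, 5 and 6. Vehicle replicates 1 and 3 were the lowest and the highest of all tumours, and the GSK343 tumours lay between them. The log2 fold change of Fasn was 0.03 (95% interval -0.28 to 0.35, limma adjusted p = 0.922).

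Acaca, which commits acetyl-CoA to fatty acids, measured 3.41, 2.96, 2.87, 3.27 and 2.65 FPKM in GSK343 replicates 1 to 5, against 2.22, 2.88, 3.83, 2.83 and 3.05 FPKM in vehicle replicates 1, 2, 3, 5 and 6. The order of the vehicle tumours at its ends was that of Fasn, with replicate 1 lowest and replicate 3 highest. Its log2 fold change was 0.03 (95% interval -0.21 to 0.28, limma adjusted p = 0.901). The span of Acaca holds 2 further annotated genes, 1 of them on the opposite strand, and its level may include reads of these. The strand setting, which bears only on the gene of the opposite strand, is not given.

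Its relative Acacb, whose product sits on the mitochondrial surface and restrains fatty acid oxidation, lay below the filter at 0.218 to 0.461 FPKM in GSK343 and 0.168 to 0.415 FPKM in vehicle tumours. The ratio of Acacb to Acaca was 0.110 ± 0.0204 in GSK343 and 0.0831 ± 0.0162 in vehicle tumours, and the ranges overlapped. The difference in log2 ratio was 0.40 (exact two-sided permutation p = 0.0635, adjusted over 3 ratios 0.190). It was 0.50 without GSK343 replicate 5 (exact permutation p = 0.0317) and also 0.50 without vehicle replicate 3 (exact permutation p = 0.0317). Leaving out any of the other tumours gave 0.32 to 0.44 (exact permutation p = 0.0635 to 0.119). On the ratio of FPKM + 1 the difference was 0.06 (exact permutation p = 0.278). The share of mitochondrial transcripts was 7.17% in GSK343 replicate 3 and 7.11% in GSK343 replicate 5, against 2.63% to 5.05% elsewhere. Without these 2 tumours the difference was 0.58 (exact permutation p = 0.0357). The p values of these alternative fits were not adjusted over the 3 ratios. With same-numbered tumours paired, the difference was 0.36 (exact sign permutation p = 0.5).

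Scd2 was the most abundant of the 10 transcripts and Scd1, its neighbour on chromosome 19, was far lower. Scd2 measured 196, 151, 167, 182 and 167 FPKM in GSK343 replicates 1 to 5, against 153, 164, 202, 173 and 206 FPKM in vehicle replicates 1, 2, 3, 5 and 6. The highest values were those of vehicle replicates 6 and 3, and the groups overlapped. Its log2 fold change was -0.05 (95% interval -0.28 to 0.18, limma adjusted p = 0.822).

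Scd1, the main liver desaturase, measured 33.8, 28.0, 27.7, 31.0 and 28.8 FPKM in GSK343 replicates 1 to 5, against 25.0, 23.9, 40.7, 30.0 and 49.3 FPKM in vehicle replicates 1, 2, 3, 5 and 6. The SD was 2.57 FPKM in GSK343 and 10.9 FPKM in vehicle tumours, where replicates 3 and 6 stood high. Its log2 fold change was -0.12 (95% interval -0.53 to 0.29, limma adjusted p = 0.762), and 0.03 without vehicle replicate 6. The ratio of Scd2 to Scd1 was 5.38 to 6.05 in GSK343 and 4.17 to 6.87 in vehicle tumours (difference in log2 ratio 0.07, exact two-sided permutation p = 0.627). As close paralogs the 2 genes may share reads, and the other paralogs Scd3 and Scd4 lay below the filter.

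The tumour with the most Scd1 also had the highest summed level of adipocyte markers. In vehicle replicate 6 the adipocyte markers Adipoq, Plin1, Cidec, Lep and Cfd measured 3.65, 1.11, 2.101, 0.440 and 31.1 FPKM. In vehicle replicate 3 they measured 0.589, 0.263, 0.423, 0.0460 and 5.57 FPKM. Other markers of the list were low in vehicle replicate 6, with Pnpla2 at 25.1, Lipe at 5.43 and Pparg at 4.49 FPKM. Vehicle replicate 1 ranked 2 by the adipocyte score, with Fabp4 at 64.4 FPKM against 63.3 FPKM in vehicle replicate 6. For Scd1, vehicle replicate 1 ranked only 9 among the 10 tumours. Adipoq did not exceed 0.534 FPKM in any GSK343 tumour, and was listed at 0 in GSK343 replicate 3 and vehicle replicate 5. Over all 12 adipocyte markers, of which 5 passed the filter, the summed level was 77.1 to 105 FPKM in GSK343 and 84.8 to 139 FPKM in vehicle tumours. With the adipocyte score as a covariate, the log2 fold change of Scd1 was 0.09 and that of Scd2 0.05. Skin is another fat-making tissue next to such a tumour. Krt14, a basal keratinocyte keratin, was 0.300 to 4.79 FPKM in the GSK343 tumours, against 30.9, 1.05, 36.3, 1.59 and 0.812 FPKM in vehicle replicates 1, 2, 3, 5 and 6. Soat1 of the same list was 5.77 to 7.93 FPKM in GSK343 and 3.22 to 8.19 FPKM in vehicle tumours. Of the sebaceous markers, Mc5r was listed at 0 throughout and Scd3 stayed below 0.1 FPKM. The summed level of the 12 skin and sebaceous markers was 8.43 to 32.0 FPKM in GSK343 and 9.16 to 133 FPKM in vehicle tumours. Their part in the levels of the lipogenic genes was not tested.

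Me1, a source of cytosolic NADPH, measured 50.3, 46.4, 52.7, 45.5 and 60.2 FPKM in GSK343 replicates 1 to 5, against 53.2, 60.0, 48.5, 46.6 and 51.3 FPKM in vehicle replicates 1, 2, 3, 5 and 6. One tumour of each group reached 60 FPKM and the rest overlapped. The log2 fold change was -0.03 (95% interval -0.23 to 0.18, limma adjusted p = 0.908).

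Acss2, the acetate-using enzyme, measured 2.88, 2.44, 3.56, 2.82 and 2.66 FPKM in GSK343 replicates 1 to 5, against 2.53, 2.73, 2.94, 2.08 and 2.36 FPKM in vehicle replicates 1, 2, 3, 5 and 6. GSK343 replicate 3 was the highest and vehicle replicate 5 the lowest. Its log2 fold change was 0.13 (95% interval -0.09 to 0.35, limma adjusted p = 0.516). The ratio of Acss2 to Acly was 0.0630 ± 0.0118 in GSK343 and 0.0573 ± 0.0111 in vehicle tumours (difference in log2 ratio 0.14, exact two-sided permutation p = 0.452). The difference was 0.04 without GSK343 replicate 3, 0.05 without vehicle replicate 5, 0.01 without GSK343 replicates 3 and 5, and 0.21 without GSK343 replicate 2, vehicle replicate 1 or vehicle replicate 2. Acss2 overlaps 5 annotated genes, among them Gss and Ggt7 on the opposite strand, so its low level may include reads of these.

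Of the transcription factors, Srebf1 was abundant and Mlxipl was near the filter. Srebf1 measured 40.1, 41.0, 42.4, 43.5 and 35.1 FPKM in GSK343 replicates 1 to 5, against 32.2, 34.5, 40.2, 38.2 and 38.6 FPKM in vehicle replicates 1, 2, 3, 5 and 6. In GSK343 tumours, 3 values exceeded every vehicle value and replicate 5 lay low. The log2 fold change was 0.13 (95% interval -0.05 to 0.32, limma adjusted p = 0.416). The table has 1 line for the gene, so its isoforms are not separated. Mlxipl measured 2.44, 1.77, 1.75, 2.28 and 1.39 FPKM in GSK343 replicates 1 to 5, against 2.08, 2.09, 1.59, 2.22 and 1.22 FPKM in vehicle replicates 1, 2, 3, 5 and 6. The groups covered almost the same range (log2 fold change 0.04, 95% interval -0.26 to 0.35, limma adjusted p = 0.891).

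With Slc25a1 left out of the count, since it was chosen in this contrast, none of the other 9 genes was called by limma at an adjusted p under 0.05, where 0.0828% of all lines tested were called, 0.0138% lower and 0.069% higher. At an unadjusted p under 0.05 in limma, 0 of the other 9 genes were lower and 0 were higher, where the shares were 6.86% of all lines lower, 10.7% higher and 17.6% in either direction. The median log2 fold change of the 10 genes was 0.03, beside -0.01 over all lines. The 95% intervals of the other genes reached from -0.53, for Scd1, to 0.35, for Acss2, Fasn and Mlxipl.

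**Figure D2:**
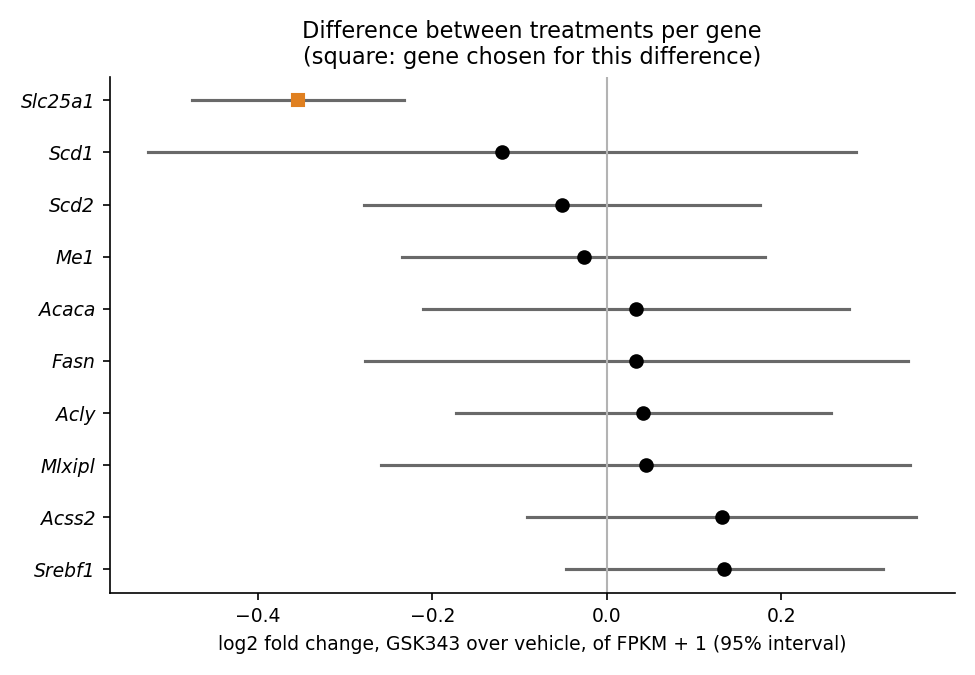
Log2 fold change of FPKM + 1, GSK343 over vehicle, for the 10 genes, with 95% intervals from limma. The square is Slc25a1 at -0.35, chosen for this difference, and the intervals of the other 9 genes all include 0.

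The 10 genes fell into a wide range of levels per length. Over all 10 tumours Scd2 averaged 176 ± 19.7 FPKM, above 96.5% of all lines tested. Slc25a1 (56.2 ± 7.63), Me1 (51.5 ± 5.26), Acly (45.4 ± 4.64), Srebf1 (38.6 ± 3.64), Scd1 (31.8 ± 7.77) and Fasn (23.3 ± 3.73 FPKM) followed. Acaca (2.996 ± 0.437), Acss2 (2.70 ± 0.400) and Mlxipl (1.88 ± 0.404 FPKM) formed the low end. Scd2 exceeded Slc25a1, and Fasn exceeded Acaca, without overlap of their ranges over the tumours. The ranges of all other neighbours in this order overlapped. Slc25a1 lay above Me1 in 7 of 10 tumours, and Me1 above Acly in 6 of 10.

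Apart from treatment, 2 pairs of the 10 genes varied together from tumour to tumour, Acly with Fasn and Scd1 with Scd2. Over the 10 tumours, as deviations from the group means of log2(FPKM + 1), Acly and Fasn had a Pearson r of 0.915 (exact permutation within groups p = 0.000486, adjusted over 45 pairs 0.0219). Their Spearman rho was 0.815 (exact permutation p = 0.00583, adjusted 0.167). Without vehicle replicates 1 and 3, the farthest from the median of Acly, r was 0.792. Scd1 and Scd2 had an r of 0.878 (exact permutation p = 0.000972, adjusted 0.0219) and a rho of 0.838 (exact permutation p = 0.0110, adjusted 0.167). Without vehicle replicates 3 and 6, the farthest for Scd1, r was 0.780. These 2 pairs of 45 passed by Pearson's r and none passed by Spearman's rho.

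No other pair passed. For Acaca with Fasn, r was 0.863 (exact permutation p = 0.00965, adjusted 0.0888) and rho 0.833 (exact permutation p = 0.0111, adjusted 0.167), with r = 0.652 without vehicle replicates 1 and 3. For Acaca with Acly, r was 0.849 (exact permutation p = 0.00882, adjusted 0.0888) and rho 0.661 (exact permutation p = 0.0569, adjusted 0.282), with r = 0.469 without the same tumours. For Me1 with Srebf1, r = -0.746 (exact permutation p = 0.0253, adjusted 0.143) and rho = -0.632 (exact permutation p = 0.0689, adjusted 0.282), and r = -0.501 without GSK343 replicate 5 and vehicle replicate 2. Of the 45 pairs, 9 had an unadjusted p under 0.05 by the exact permutation of r, 21 had a positive r and the median r was -0.03.

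**Figure D3:**
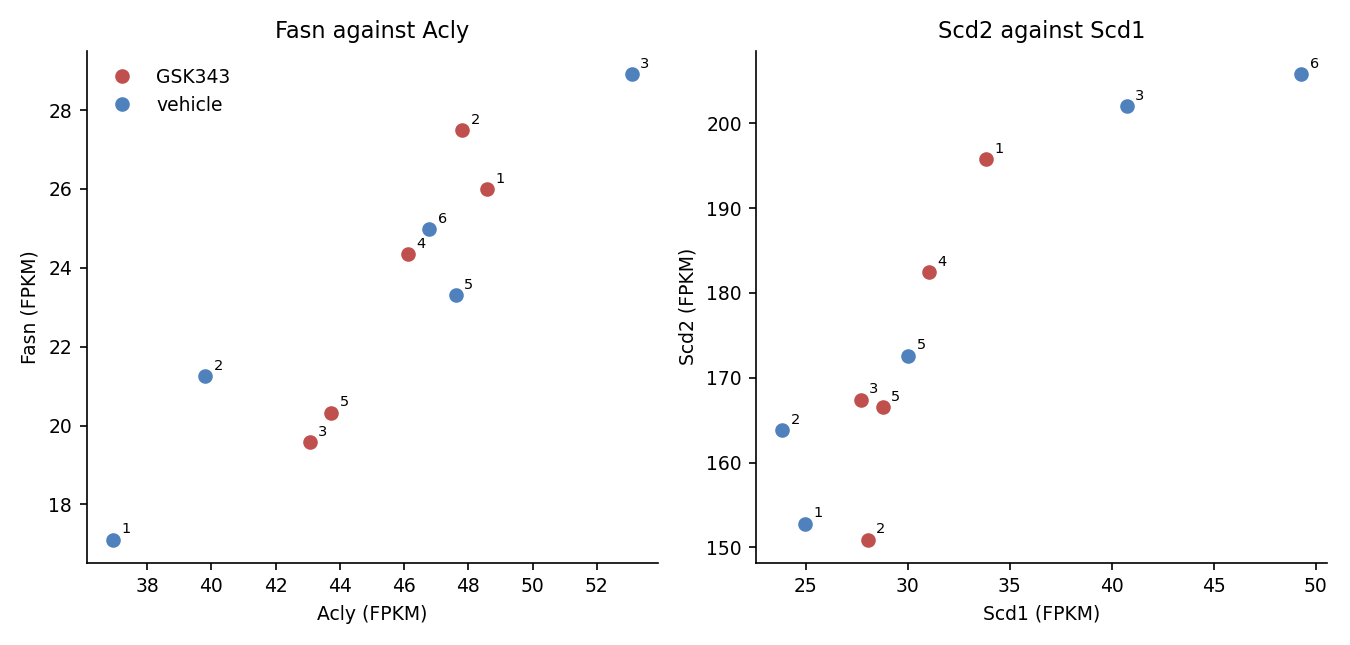
Fasn against Acly (left) and Scd2 against Scd1 (right), both in FPKM on axes that do not start at 0. Points are tumours with their replicate numbers, in red for GSK343 and blue for vehicle. Vehicle replicates 1 and 3 mark the ends for Acly and Fasn, at 36.9 and 53.1 FPKM of Acly, and treatments mix along both trends.

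By the ranking of Pearson r with Slc25a1 over the 10 tumours as a measure of likeness, the 5 closest named protein-coding genes were Peak1 (r = 0.94), Eif2s2 (0.94), Anxa4 (0.92), Utp11 (0.92) and Hid1 (0.92). They were picked out of all lines tested, so no test is attached. The group means were left in, so these r carry the treatment difference by which Slc25a1 was chosen. Peak1, a cytoskeletal pseudokinase, averaged 3.65 ± 0.481 FPKM in GSK343 and 8.09 ± 1.18 FPKM in vehicle tumours. Eif2s2, a subunit of translation initiation factor eIF2, averaged 93.9 ± 3.73 FPKM in GSK343 and 111 ± 5.38 FPKM in vehicle tumours. Anxa4, a calcium-dependent membrane-binding annexin, averaged 294 ± 15.8 FPKM in GSK343 and 358 ± 34.9 FPKM in vehicle tumours. None of the other 9 lipogenic genes was among them, their r with Slc25a1 running from -0.495 for Srebf1 to 0.174 for Scd1. With the group means removed, their r with Slc25a1 ran from -0.483 for Acaca to 0.037 for Srebf1. These r hung on few tumours. Without GSK343 replicate 1 and vehicle replicate 1, the farthest from the median of Slc25a1, they ran from -0.603 for Me1 to 0.662 for Srebf1. Acaca then had 0.144 and Scd1 0.519.

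Within the mitochondrial carrier family, Slc25a1 had the most negative log2 fold change of the 36 members tested, out of 47 in the table. Slc25a1 was chosen in this contrast, so that place describes the choice and tests nothing. No carrier was called, where the share of all lines was 0.0828%. At an unadjusted p under 0.05 in limma 5 were lower, Slc25a1 among them, and 2 were higher, where the shares of all lines were 6.86% lower and 10.7% higher. Of the 36, 25 had a negative log2 fold change, Slc25a1 again among them, as had 7593 of all 14496 lines. The family's median was -0.08. Slc25a3, the phosphate carrier, averaged 309 ± 41.0 FPKM in GSK343 and 380 ± 45.4 FPKM in vehicle tumours (limma adjusted p = 0.222). Slc25a4, the ADP/ATP carrier of heart and muscle, averaged 29.0 ± 7.12 FPKM in GSK343 and 17.2 ± 4.45 FPKM in vehicle tumours (limma adjusted p = 0.191). All 10 skeletal muscle markers had a positive log2 fold change too, as had 6903 of all 14496 lines. Of these markers, limma called 0, and 8 were higher at an unadjusted p under 0.05, where the share of all lines was 10.7%. The sum of these markers was 66.1 to 457 FPKM in GSK343 and 3.26 to 111 FPKM in vehicle tumours. Their part in the value of Slc25a4 was not tested.

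**Figure D4:**
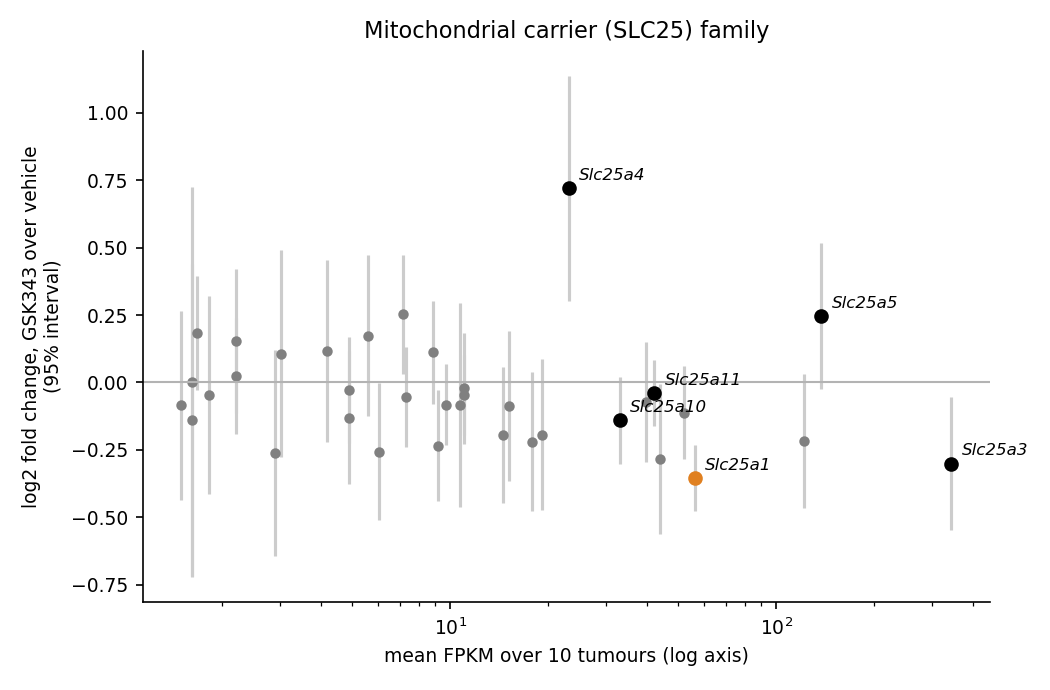
Log2 fold change, GSK343 over vehicle, of the 36 SLC25 carriers tested against their mean FPKM over 10 tumours on a log axis, with 95% intervals. Slc25a1 (orange), chosen in this contrast, lies lowest at -0.35, and Slc25a4 lies highest at 0.72.

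The neighbours of Slc25a1 on the chromosome mostly lay below the filter. Of 10 lines with their whole span within 100 kb, 2 passed the filter, and limma called 0 of them, with 0 at an unadjusted p under 0.05. Dgcr14, a spliceosome-associated protein gene, averaged 7.38 ± 0.427 FPKM in GSK343 and 6.46 ± 1.10 FPKM in vehicle tumours (log2 fold change 0.18, limma adjusted p = 0.407). Dgcr2, a membrane protein gene, averaged 13.5 ± 1.31 FPKM in GSK343 and 13.1 ± 2.03 FPKM in vehicle tumours (log2 fold change 0.04, limma adjusted p = 0.868).

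Genes that make the citrate were measured as a list of 17, all tested. None was called, 11 had a negative log2 fold change and the median was -0.03. Of all 14496 lines tested, 7593 had a negative value and 0.0828% were called, the share to set beside the lists below as well. Cs, the citrate synthase, measured 78.0 to 91.0 FPKM in GSK343 and 91.3 to 98.4 FPKM in vehicle tumours. Its groups did not overlap, though their ends nearly met (log2 fold change -0.17, SE 0.0582, limma adjusted p = 0.213). Of all lines tested, 1.2% were lower without overlap. Slc25a10, the dicarboxylate carrier, averaged 31.4 ± 2.01 FPKM in GSK343 and 34.7 ± 2.74 FPKM in vehicle tumours (limma adjusted p = 0.348). Mdh2, the mitochondrial malate dehydrogenase, averaged 249.6 ± 18.7 FPKM in GSK343 and 273 ± 19.0 FPKM in vehicle tumours (limma adjusted p = 0.396).

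Of 13 NADPH-supplying genes 12 were tested and none was called (median log2 fold change -0.06). Aldh1l1, a cytosolic folate enzyme that forms NADPH, averaged 8.73 ± 2.17 FPKM in GSK343 and 5.93 ± 1.12 FPKM in vehicle tumours (limma adjusted p = 0.230). Nnt, the mitochondrial transhydrogenase, averaged 11.95 ± 3.56 FPKM in GSK343 and 15.6 ± 1.12 FPKM in vehicle tumours (limma adjusted p = 0.315). Pgd, of the pentose phosphate pathway, averaged 56.4 ± 4.56 FPKM in GSK343 and 50.2 ± 6.08 FPKM in vehicle tumours (limma adjusted p = 0.361).

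Control of SREBP and ChREBP was covered by 16 genes, 14 of them tested and none called (median 0.01). Insig2, which holds SREBP in the endoplasmic reticulum, averaged 26.0 ± 1.74 FPKM in GSK343 and 30.4 ± 3.25 FPKM in vehicle tumours (limma adjusted p = 0.231). Its relative Insig1, itself an SREBP target, averaged 10.7 ± 0.480 FPKM in GSK343 and 9.44 ± 1.55 FPKM in vehicle tumours (limma adjusted p = 0.384). Usf1, an E-box factor of lipogenic promoters, averaged 25.8 ± 2.52 FPKM in GSK343 and 21.7 ± 3.62 FPKM in vehicle tumours (limma adjusted p = 0.309).

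Downstream of palmitate, 1 of 13 tested elongation and desaturation genes was called, out of 17, where 0.0828% of all lines tested were called. The gene lists were chosen with earlier results of these data known, so this count and the p of the called gene are a description and no independent test. The called gene was Hsd17b12, a ketoacyl-CoA reductase of elongation, at 52.3 to 63.4 FPKM in GSK343 tumours, against 16.7 to 24.2 FPKM in vehicle tumours (log2 fold change 1.43, SE 0.105, limma adjusted p = 0.000696). Ordered by limma's p, Hsd17b12 stood at place 1 of all lines tested. The median of the list was -0.01. Hacd3, a dehydratase of the same elongation cycle, averaged 48.6 ± 5.93 FPKM in GSK343 and 53.7 ± 5.18 FPKM in vehicle tumours (limma adjusted p = 0.466). The elongase Elovl2 averaged 0.986 ± 0.435 FPKM in GSK343 and 1.88 ± 1.31 FPKM in vehicle tumours (limma adjusted p = 0.406).

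No gene was called among 15 tested of 16 in acyl-CoA activation and triglyceride synthesis (median -0.05), nor among the 15 of sterol synthesis and uptake, all tested (median -0.03). Neither list held a gene at an unadjusted p under 0.05 in limma, where the share of all lines was 17.6%. Agpat1, an acyltransferase of triglyceride synthesis, averaged 29.5 ± 1.12 FPKM in GSK343 and 32.9 ± 3.10 FPKM in vehicle tumours (limma adjusted p = 0.318). Dgat2, which makes triglyceride, averaged 1.496 ± 0.473 FPKM in GSK343 and 1.98 ± 0.638 FPKM in vehicle tumours, and the phosphatidate phosphatase Lpin3 averaged 4.33 ± 1.57 FPKM in GSK343 and 5.33 ± 1.69 FPKM in vehicle tumours. Sqle, the squalene epoxidase, averaged 64.6 ± 3.82 FPKM in GSK343 and 75.3 ± 13.9 FPKM in vehicle tumours (limma adjusted p = 0.411), and the isomerase Idi1 averaged 6.52 ± 2.24 FPKM in GSK343 and 4.55 ± 2.59 FPKM in vehicle tumours (limma adjusted p = 0.490).

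**Figure D5:**
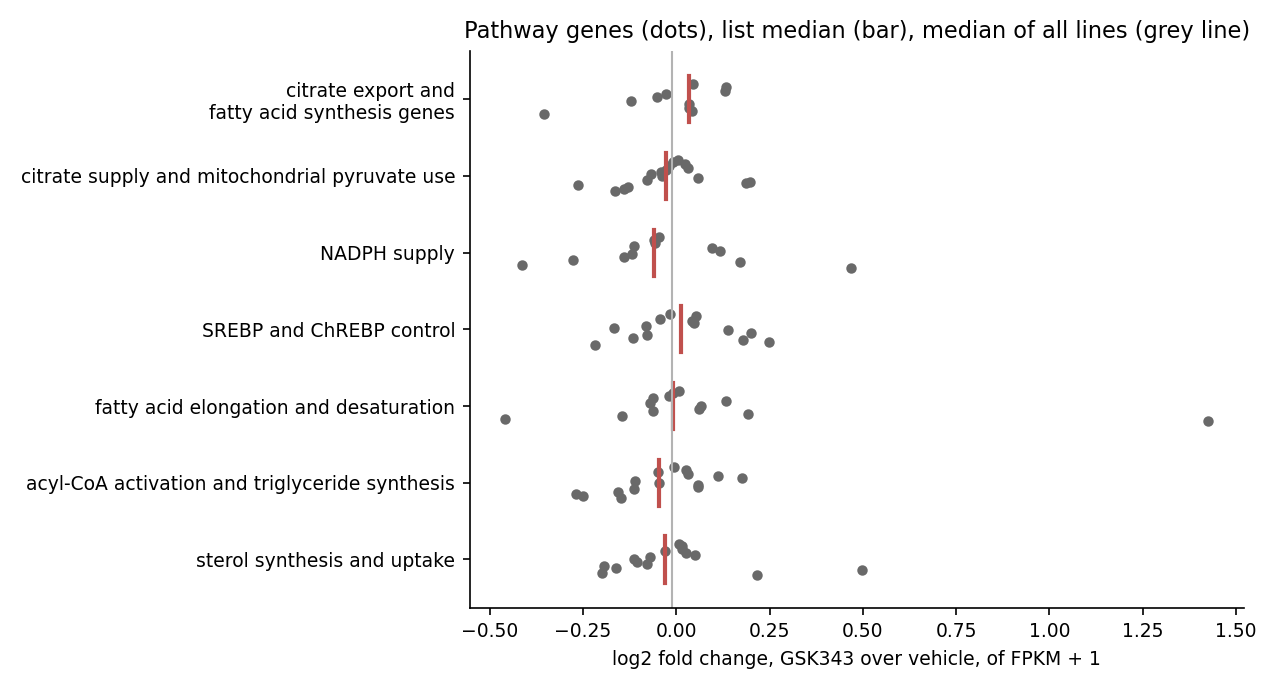
Log2 fold change of FPKM + 1, GSK343 over vehicle, of each tested gene (dots) in 7 lists, with the list median (red bar) and the median of all lines (grey line, -0.01). List medians lie between -0.06 and 0.03, and the dot far right is Hsd17b12 at 1.43.

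The spread over tumours was counted for each list. The SD in FPKM was smaller in GSK343 tumours for 7 of the 10 lipogenic genes, for all 14 tested SREBP and ChREBP control genes, for 14 of 15 sterol genes and for 13 of 15 acyl-CoA and triglyceride genes. Over all lines tested it was smaller in GSK343 tumours for 54.7%. It was smaller in GSK343 tumours for 10 of 17 citrate supply, 8 of 12 NADPH and 10 of 13 elongation and desaturation genes. Over the marker lists the count ran from 0 of 10 skeletal muscle, 1 of 7 endothelial and 2 of 10 fibroblast genes to 7 of 10 pan-leukocyte, 10 of 14 hepatocyte, 3 of 5 adipocyte and 5 of 5 skin genes. An SD in FPKM tends to be larger where the level is higher, and the counts were not corrected for level. The log2 fold change was positive for 10 of 10 skeletal muscle, 9 of 10 fibroblast and 6 of 7 endothelial markers. It was also positive for 10 of 10 pan-leukocyte markers, whose SD was mostly smaller in GSK343 tumours. All genes come from the same tumours, so the counts are a description without a test.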

How the data were processed

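Poly-A RNA was sequenced on an Illumina HiSeq instrument. The deposited table gives each gene a value in every tumour. These values were read as FPKM because they are not whole numbers and sum to 574547 to 623397 per tumour, and since neither the labels nor the deposited header names a unit. The authors used Trimmomatic 0.33, HISAT2 2.1.0, StringTie 1.3.3b and mm10, per the submitters' processing notes. Their options, annotation release and strand setting: not given in the sources used here. In single-exon lines 41.4% to 44.7% of low values lay within 0.1 of a whole step. Whole reads were therefore not recovered, the depth is unknown and no counting interval is given. A further 10 unnamed columns were empty.

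GSK343 tumours have titles that name the drug. The others were taken as vehicle by elimination. The 14496 lines whose mean reached 1 FPKM were tested as log2(FPKM + 1) with limma 3.58.1 in R 4.3.3, with an intensity trend, and low genes have their fold changes understated by the pseudocount. Calls needed a two-sided Benjamini-Hochberg adjusted p under 0.05 over all lines. For the 3 ratios an exact permutation of the 252 group assignments was run, which can give no p below 0.00794. Pairs of genes were tested over 14400 orders within groups. Data were simulated for this contrast over 14496 lines with independent noise, and changes were given only to genes above the median level. Of the genes given a 2-fold change, limma recovered 88%. Smaller changes, and genes as low as Acaca, Acss2 and Mlxipl, were not covered. At 4-fold it recovered 98%, and 4.12% of calls were false. Figures were drawn with matplotlib 3.10.9.

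The members and gene lists were chosen with earlier results of these data known. The text names all 10 members and Acacb, up to 3 genes with the smallest p of each of 8 pathway lists with any called, and the 5 named genes most like Slc25a1. A gene that this rule names is not reported here. Single marker genes and Scd3 and Scd4 were named after their values were seen. Same-numbered tumours of both groups did not deviate together (r = -0.112, -0.332, 0.0349 and -0.194 for numbers 1, 2, 3 and 5), so the main fit has no block. Alternatives covered the filter, pseudocount, scaling, variance model, tumour weights, marker scores as covariates, a block, summed lines and left-out tumours. The adipocyte covariate was chosen after seeing the data.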

Additional observations from a re-analysis of the deposited data

Results flagged for a closer look

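Of 86 groups of 5 tumours examined for a single distant value, 5 had one, or 5.81%, about the share of 5% that chance gives. The hepatocyte and hepatoma score of vehicle replicate 1 was 6.29, above 5.46 to 5.61 in the other vehicle tumours. This is the tumour with the highest Slc25a1 and the lowest Acly, Acaca, Fasn and Srebf1. The skin and sebaceous gland score of GSK343 replicate 5 was 2.67, above 0.971 to 1.41 in the other GSK343 tumours. Nnt was 5.87 FPKM in GSK343 replicate 5, below 12.2 to 14.5 FPKM in the other GSK343 tumours. Idi1 was 2.57 FPKM in GSK343 replicate 3, below 7.06 to 7.96 FPKM in the others. Dgcr14 was 8.12 FPKM in GSK343 replicate 2, above 7.02 to 7.30 FPKM in the others.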

How the results depend on the processing

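Of the 10 lipogenic genes, 1 (Slc25a1) was called with every line above 0 tested and 1 with tumour weights, and likewise 1 SLC25 carrier in both. Leaving out 1 tumour gave 0 to 1 called among the lipogenic genes and 0 to 1 in the SLC25 family, 1 being Slc25a1 without vehicle replicate 2. Over the other alternatives the log2 fold change of Slc25a1 ran from -0.36 to -0.29. Slc25a1 was chosen in this contrast, so its calls test nothing. With the replicate block, limma called 0 lipogenic genes, 0 elongation and desaturation genes (Hsd17b12 lost its call) and 2 of all lines. The signs of small values turned with quantile normalization (Acaca -0.080, Mlxipl -0.072), tumour weights (Acly -0.018, Fasn -0.022, Me1 0.026), the pan-leukocyte score (Acaca -0.018, Scd1 0.024, Acss2 -0.021), the hepatocyte score (Acly -0.0058, Acaca -0.0083, Fasn -0.025), the replicate block (Scd1 0.012, Me1 0.0094, Mlxipl -0.086, log2 ratio of Scd2 to Scd1 -0.035) and the adipocyte score (Scd1 0.085, Scd2 0.0498). Leaving out 1 tumour, log2 fold changes ran from -0.024 to 0.10 for Acly, -0.038 to 0.11 for Acaca, -0.064 to 0.12 for Fasn, -0.23 to 0.027 for Scd1, -0.11 to 0.00042 for Scd2, -0.087 to 0.026 for Me1 and -0.041 to 0.11 for Mlxipl. The log2 ratio of Scd2 to Scd1 ran from -0.028 to 0.15 and that of Acacb to Acaca from 0.32 to 0.50, with 0.58 without GSK343 replicates 3 and 5. The log2 ratio of Acss2 to Acly ran from 0.035 to 0.21 on leaving out 1 tumour. The cause was not tested. Of all lines, 12 were called, against 6 with every line above 0 and 3 at a mean of at least 5 FPKM. Median-of-ratios scaling gave 7 and quantile normalization 7. Tumour weights gave 17, a pseudocount of 0.1 gave 13, no intensity trend 13 and summed lines 12. Fits with the pan-leukocyte, hepatocyte or adipocyte score gave 2 each. The count was 4 without GSK343 replicates 3 and 5. Leaving out 1 tumour gave 3 to 96 (96 without vehicle replicate 2, 37 without GSK343 replicate 1). With 5 tumours a group and unknown depth, small differences in genes near 1 FPKM are the least certain.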
